A study of Mus musculus with 7 samples.

Results

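The transcripts of *Trp53*, which encodes the tumor suppressor p53, and of 9 classic p53 target genes were followed in nuclei of BB-p53n OPCs, cells engineered to lack p53. The 10 genes were *Trp53*, *Cdkn1a*, *Mdm2*, *Ccng1*, *Bax*, *Bbc3*, *Phlda3*, *Zmat3*, *Eda2r* and *Sesn2*. They were taken by their symbols from the 33696 genes of the deposited matrix, and all 10 were listed there. BB-p53n OPCs are primary mouse oligodendrocyte progenitor cells (OPCs) of *Trp53* fl/fl C57BL/6 pups of either sex, isolated in the first postnatal week with an antibody to CD140a, which recognizes PDGFRα. A retrovirus carrying PDGFB and Cre recombinase deleted *Trp53* and overexpressed PDGFB in culture. The cells were measured by single-nucleus RNA sequencing in 1 library. The library has no replicate and no culture with an intact *Trp53* gene beside it, so every value below describes this library and no p-value can be given. The other samples of the series, 3 tumor-bearing brains of an early stage and 3 of a late one, were not analysed here.

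As background, p53 is a transcription factor that is held at a low level by the ubiquitin ligase MDM2 and accumulates when DNA is damaged or when oncogenes drive the cell. It binds DNA as a tetramer and turns on genes of cell cycle arrest, apoptosis, DNA repair and metabolism, and one of these genes is *Mdm2* itself, which closes a feedback loop. Most of these genes also have a basal transcription that does not need p53. In glioma and its progenitor cells, loss of p53 or of its upstream regulators is one of the common lesions.

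The position of *Trp53* and the part that Cre removes set what the counts can show. *Trp53* lies on the plus strand at chr11:69469669-69482701 of GRCm39, and its canonical transcript has 11 exons in GENCODE. As background, Cre deletes exons 2 to 10 of this floxed allele. These exons hold 1091 of the 1170 coding bases, or 93.2%. Exon 11 is kept, and it makes up 526 bases at the 3′ end of the transcript, where a 3′ library is primed. A gene-level UMI count of *Trp53* therefore does not test the deletion, and *Trp53* here means transcripts of the locus and not a functional mRNA.

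To show how a target is marked in DNA, the p53 consensus was searched on both strands within 3000 bases of the canonical start of each of the 10 genes. The consensus is 2 adjacent half-sites of 10 letters, and 1 mismatch was allowed outside the fixed C and G of each half-site. This search was chosen after an exact search had matched *Zmat3* alone. The 4 matches are shown as examples of the consensus near known targets, and binding of p53 to them was not measured. Capitals mark letters that match the consensus and lower case marks the mismatch:
*Cdkn1a*, chr17:29309902-29309921, plus strand, 2826 bases upstream of the start: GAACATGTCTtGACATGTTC
*Ccng1*, chr11:40646289-40646308, minus strand, 161 bases upstream: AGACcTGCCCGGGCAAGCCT
*Ccng1*, chr11:40645763-40645782, minus strand, 365 bases downstream, in an intron: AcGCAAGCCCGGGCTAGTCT
*Zmat3*, chr3:32418480-32418499, minus strand, 1418 bases downstream, in an intron of the canonical transcript and in an exon of another: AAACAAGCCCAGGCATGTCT

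In all, 3 of the 10 genes held such a match, against 194 of 21431 protein-coding genes (0.905%), and 1 of the 10 held an exact match, against 23 genes (0.107%). The 10 genes were chosen as known targets, so this is a description. For the other genes it says only that these letters are not in this window.

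Of 10047 deposited barcodes, 8917 had 2000 to 8000 detected genes and were kept. They held a median of 13771 UMIs and 4718 genes. These nuclei are a wider set than the study's own, which matches the 1954 of them with at most 5% mitochondrial UMIs in its number of nuclei and in its mean UMIs and genes. With the settings of the study's methods the wider set gave 8 clusters, which are not the clusters of the study. Cluster 0 was the largest, with 1810 nuclei, and cluster 7 the smallest, with 182. Clusters 1 to 6 held 1733, 1367, 1338, 1023, 777 and 687. The OPC markers *Olig1*, *Olig2*, *Sox10*, *Pdgfra* and *Cspg4* were all present, with a summed level of 770 to 1513 CPM per cluster. CPM stands for the UMIs of a gene, summed over nuclei, in each 1000000 UMIs of those nuclei. *Pdgfra* in cluster 1 was at 19.4 CPM, against 256 CPM in all kept nuclei. *Sox10* there was at 5.87 CPM, against 87.3 CPM. The 5 microglial markers summed to 7.30 CPM, of which *P2ry12* gave 5.25 CPM, and reached 16.2 CPM in cluster 7, with *C1qa* at 0. The 5 endothelial markers summed to 9.49 CPM, of which *Pecam1* gave 5.46 CPM, and reached 16.8 CPM in cluster 3, with *Cldn5* at 0. The 5 astrocyte markers summed to 15.3 CPM. The 5 markers of fibroblasts or pericytes summed to 0.503 CPM.

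*Trp53* transcripts were found throughout the library. In the kept nuclei 3496 UMIs were counted on it, a level of 24.8 CPM (95% exact Poisson interval 24.0 to 25.6). This and all later intervals cover counting error only. Thinning to 5000 UMIs per nucleus kept 8760 nuclei, and 11.3% of them had a *Trp53* UMI (95% exact binomial interval 10.6% to 11.9%). Without thinning the share was 29.95%. No nuclei known to lack the locus were in the library, so Y-linked transcripts in nuclei with *Xist* were taken as a gauge. It does not separate free RNA from barcodes that hold several nuclei. The 4 Y-linked genes stood at 6.89 CPM in the 1663 *Xist*-positive nuclei of cluster 1 (median 11615 UMIs), which was 9.45% of their level in all kept nuclei. These were 146 UMIs, held by 5.29% of those nuclei. The level of *Trp53* in cluster 1 was 26.6 CPM. *Wrap53*, which overlaps the 5′ part of *Trp53* on the opposite strand by 1483 bases, was at 7.26 CPM.

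All 9 targets were detected. The apoptosis effector *Bax* had 28407 UMIs and a level of 201 CPM (199 to 204). *Mdm2*, the feedback inhibitor, was at 61.0 CPM (59.8 to 62.3). *Zmat3*, an RNA-binding regulator of splicing, was at 39.5 CPM (38.5 to 40.6). *Cdkn1a*, which encodes the cyclin-dependent kinase inhibitor p21, was at 18.4 CPM (17.7 to 19.1), and *Ccng1*, encoding cyclin G1, was at 17.1 CPM (16.4 to 17.8). *Sesn2*, a stress-induced inhibitor of mTORC1 signaling, was at 16.8 CPM (16.2 to 17.5). *Phlda3*, an inhibitor of AKT, was at 11.98 CPM (11.4 to 12.6). *Bbc3*, which encodes the BH3-only death protein PUMA, was at 2.57 CPM (2.31 to 2.85). *Eda2r*, a receptor of the TNF receptor family, had 27 UMIs, or 0.191 CPM (0.126 to 0.278).

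These CPM values were not divided by length. The order of genes was also read per kilobase of gene span, since intronic reads are counted in nuclei, and per kilobase of exons. Counts of a 3′ library need not scale with either length, so neither order is preferred to that of the CPM. Per kilobase of span *Bax* was again highest, at 37.9 CPM per kb. *Phlda3* (3.09), *Mdm2* (2.78), *Ccng1* (2.52), *Trp53* (1.90), *Cdkn1a* (1.88) and *Zmat3* (1.27 CPM per kb) followed. *Sesn2* was at 0.911, *Bbc3* at 0.262 and *Eda2r* at 0.00190 CPM per kb. Per kilobase of exons *Bax* was again highest, at 108 CPM, and *Bbc3* (0.537) and *Eda2r* (0.0255) were again lowest, but the order between them was *Mdm2* (7.92), *Phlda3* (4.63), *Ccng1* (3.88), *Sesn2* (3.71), *Zmat3* (3.46), *Trp53* (3.36) and *Cdkn1a* (3.04). The counts of *Sesn2* may be incomplete because *Gm12981*, also in the matrix, overlaps it on the same strand over 6089 bases.

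At 5000 UMIs per nucleus a *Bax* UMI was found in 62.5% of nuclei (61.5% to 63.6%) and an *Mdm2* UMI in 26.2% (25.2% to 27.1%). The shares were 17.4% for *Zmat3*, 7.99% for *Ccng1*, 7.74% for *Cdkn1a*, 7.23% for *Sesn2*, 5.74% for *Phlda3* and 1.42% for *Bbc3*. *Eda2r* was found in 4 nuclei. At least 1 of the 10 genes was found in 85.0% of nuclei, most often 1 gene (3535 nuclei) or 2 genes (2634 nuclei). None was found in 1312 nuclei, and 3 nuclei held 6 of them.

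The next question was whether the targets varied together across the clusters of the culture. *Cdkn1a* differed by an order of magnitude between clusters. *Trp53*, *Mdm2*, *Bax* and *Zmat3* stayed within 1.5-fold of the other nuclei in all 8 clusters, and *Ccng1*, *Bbc3*, *Phlda3* and *Sesn2* were past it in 1 to 3 of them. Clusters were made from the same nuclei and from 3000 variable genes that included *Cdkn1a* and *Sesn2*, so their differences are descriptions. Clustering without the 10 genes again gave 8 clusters, and *Cdkn1a* then ran from 4.79 to 47.4 CPM. A ratio of a cluster to all other nuclei was called past the fold at 1.5 or more, or at the inverse or less, among genes with at least 100 UMIs. *Eda2r* had too few UMIs, so 9 genes were read in this way.

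**Figure D1:**
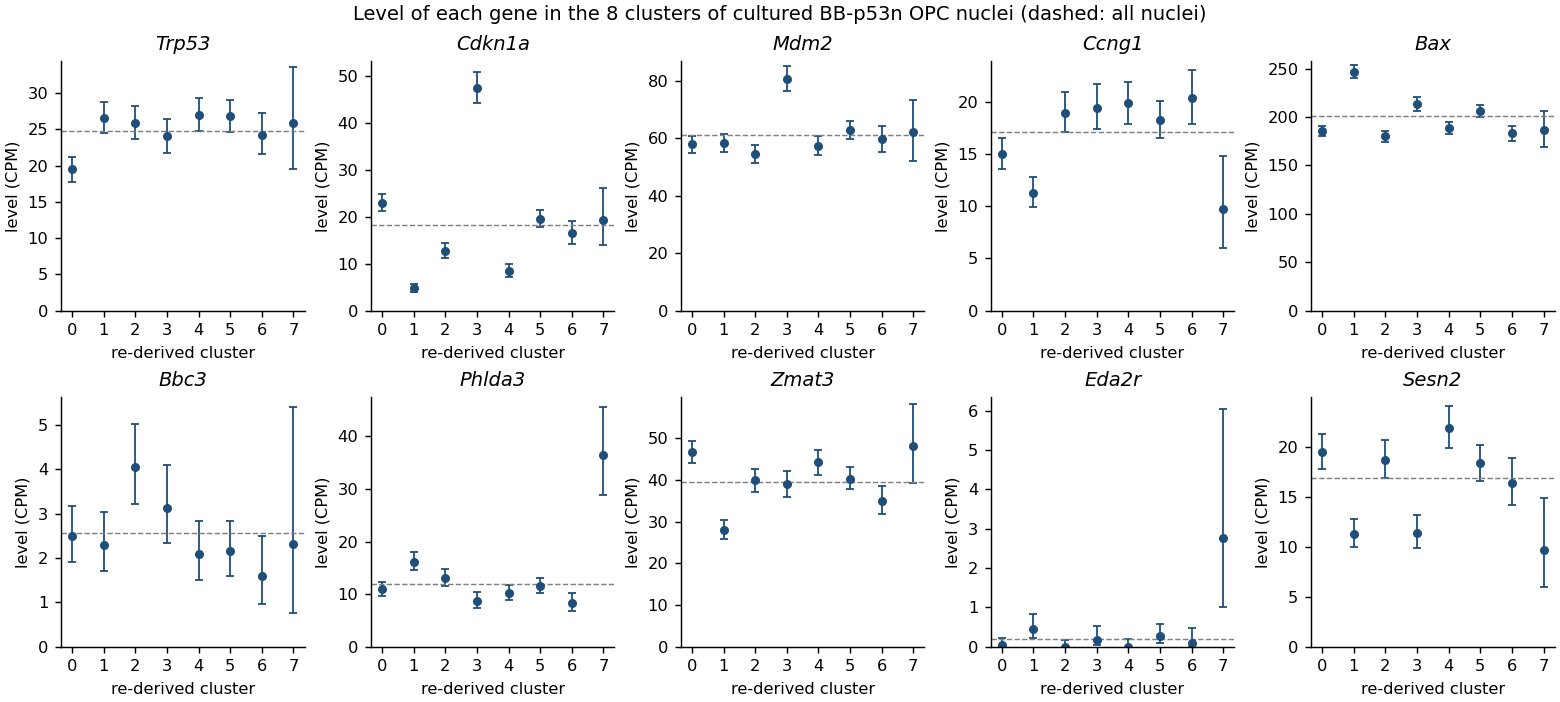
Level in CPM of each of the 10 genes (vertical axes, each from 0) in the 8 re-derived clusters (horizontal axes). Points are levels, bars are 95% exact Poisson intervals and the dashed line is the level in all kept nuclei. *Cdkn1a* had its lowest level in cluster 1 (4.79 CPM) and its highest in cluster 3 (47.5 CPM), whereas *Trp53* ran from 19.5 to 27.0 CPM.

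*Cdkn1a* was lowest in cluster 1, at 4.79 CPM (3.92 to 5.79), followed by cluster 4 at 8.53 CPM (7.28 to 9.92) and cluster 2 at 12.7 CPM (11.2 to 14.4). Clusters 6, 7, 5 and 0 had 16.6, 19.4, 19.5 and 23.0 CPM. Cluster 3 stood apart at 47.5 CPM (44.2 to 50.9). In the order of clusters, the intervals of clusters 6, 7 and 5 overlapped, as did those of 7, 5 and 0, and that of cluster 2 just reached those of 6 and 7. Cluster 3 lay above all of them. Relative to all other nuclei the level was 3.27 times as high in cluster 3 (3.01 to 3.56) and 0.229 times in cluster 1 (0.187 to 0.278). At 5000 UMIs, 18.8% of nuclei of cluster 3 and 2.17% of cluster 1 had a *Cdkn1a* UMI.

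Several other measurements also differed between these 2 clusters. *Pdgfra* was lowest in cluster 1, and it was low in cluster 3 too, at 0.533 times its level in other nuclei. In cluster 1 90.9% of nuclei had *Xist* and no Y-linked UMI, whereas in cluster 3 78.3% had Y-linked UMIs and no *Xist*. Nuclei with at most 5% mitochondrial UMIs made up 44.6% of cluster 3 and 10.9% of cluster 1. The 5 neuronal markers summed to 255 CPM in cluster 3, of which *Syt1* gave 226 CPM, and to 36.2 CPM in cluster 1. The list was not uniform, since *Rbfox3* was highest in cluster 1, at 15.8 CPM, and *Gad1* had ratios of 1.98 in cluster 1 and 0.702 in cluster 3. Chromosome 17, which carries *Cdkn1a*, had 0.867 times its share of UMIs in cluster 3 relative to all other nuclei and 1.00 times in cluster 1. The level of *Cdkn1a* in cluster 1 was 26.0% of that in all kept nuclei, above the 9.45% of the Y-linked gauge. The part of donor, cell state, free RNA and barcodes that hold several nuclei in these values was not tested.

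*Mdm2* shared the high value of *Cdkn1a* in cluster 3, on a smaller scale. It stood at 80.7 CPM there (76.4 to 85.1). The other 7 clusters lay from 54.4 CPM (cluster 2) to 62.7 CPM (cluster 5). The ratio in cluster 3 was 1.38 and thus within the fold. Chromosome 10, which carries *Mdm2*, had 0.987 times its share of UMIs in cluster 3. A share of the whole chromosome does not show the dosage of a smaller region, which was not tested. *Mdm2* had 58.3 CPM in cluster 1, a ratio of 0.948, whereas *Cdkn1a* was lowest there.

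*Trp53* itself was within the fold in all 8 clusters. It was lowest in cluster 0, at 19.5 CPM, with a ratio of 0.750 to all other nuclei, and lay between 24.0 and 27.0 CPM in the other 7. The 2 clusters with the most and the least *Cdkn1a* had *Trp53* at 24.0 CPM (cluster 3) and 26.6 CPM (cluster 1). Chromosome 11, which carries *Trp53*, had 1.21 times its share of UMIs in cluster 3 and 0.959 times in cluster 1. In cluster 0 it had 0.937 times its share.

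Among the death genes, *Bax* was highest in cluster 1, with 247 CPM (241 to 254). Elsewhere it lay from 180 to 214 CPM. *Bbc3* was at 4.04 CPM in cluster 2, 1.74 times its level in other nuclei (1.34 to 2.23), and at 1.60 CPM (0.962 to 2.49) in cluster 6, past the fold on the low side on 19 UMIs. *Bax* and *Bbc3* therefore did not share a highest cluster.

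*Phlda3* was highest in the smallest cluster. It stood at 36.5 CPM (28.9 to 45.5) in cluster 7 and at 8.41 to 16.2 CPM in the other clusters, a ratio of 3.15 to all other nuclei (2.48 to 3.95) that rests on 79 UMIs. *Eda2r* also had its highest level there, 2.77 CPM, from 6 UMIs. In clusters 2 and 4 *Eda2r* had no UMI, where 3 UMIs would be 0.148 and 0.153 CPM and the 95% exact Poisson upper limits are 0.182 and 0.188 CPM. Chromosome 1, which carries *Phlda3*, had 1.36 times its share of UMIs in cluster 7.

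*Ccng1*, *Sesn2* and *Zmat3* were low in cluster 1. *Ccng1* stood at 11.3 CPM there (ratio 0.621), *Sesn2* at 11.3 CPM (0.631) and *Zmat3* at 28.1 CPM (0.674), and only *Zmat3* was just within the fold. Chromosome 4, which carries *Sesn2*, had 0.819 times its share of UMIs in cluster 1. Chromosomes 11 and 3, which carry *Ccng1* and *Zmat3*, had 0.959 and 1.09 times theirs. *Sesn2* was also low in cluster 3, at 11.4 CPM (0.647), where *Cdkn1a* was high. In cluster 7 *Ccng1* and *Sesn2* each stood at 9.71 CPM, from 21 UMIs each.

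Counted over the 8 clusters, 12 values of the 9 genes were past the fold. In cluster 1 these were 3 of 9 genes, against 40.8% of 14531 genes tested. In cluster 7 they were 3 of 9, against 32.5%. Clusters 2 and 3 each had 2 of 9, against 19.7% and 21.7%, and clusters 4 and 6 each had 1 of 9, against 20.5% and 19.8%. Clusters 0 and 5 had none, against 16.0% and 4.18%. These counts lie near or below the shares over all genes and are no result about the group. *Cdkn1a* alone gave 4 of the 12 values, in clusters 1, 2, 3 and 4, and *Sesn2* gave 3.

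The 1954 nuclei with at most 5% mitochondrial UMIs were also clustered on their own, a step chosen after the data were seen, and gave 5 clusters. *Cdkn1a* was highest in the one with 463 nuclei, at 49.2 CPM (44.1 to 54.9), and 89.0% of these nuclei came from cluster 3. It was lowest in the one with 201 nuclei, at 9.50 CPM (6.26 to 13.8), of which 93.0% came from cluster 1. The other 3 had 15.9, 20.3 and 27.7 CPM. *Trp53* ran from 20.4 to 28.2 CPM and *Mdm2* from 55.8 to 75.4 CPM, and *Mdm2* was again highest where *Cdkn1a* was. None of these 5 clusters had the high *Phlda3* of cluster 7, as *Phlda3* ran from 9.58 to 13.9 CPM in them. The 57 nuclei of cluster 7 in this set still had *Phlda3* at 31.0 CPM (19.6 to 46.5), from 23 UMIs. That was 2.79 times its level in the other nuclei of the set.

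Nuclei were next assigned to cell cycle phases, because p21 restrains the G1 to S transition. None of the 10 genes is in the lists that define the phases. G1 held 2661 nuclei, S 2300 and G2M 3956. *Cdkn1a* was at 21.4 CPM (19.9 to 22.9) in G1, at 23.8 CPM (22.2 to 25.6) in S and at 14.5 CPM (13.7 to 15.4) in G2M. It was thus lowest in G2M, at 0.679 times the level in G1 (0.619 to 0.746), just within the fold, and slightly higher in S than in G1, with a ratio of 1.11 (1.01 to 1.23).

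**Figure D2:**
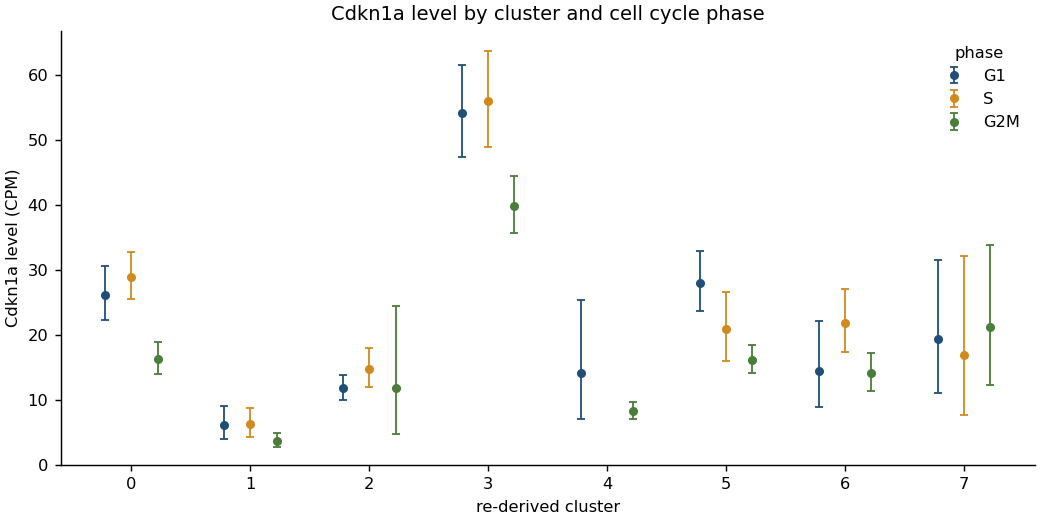
*Cdkn1a* level in CPM (vertical axis) in each re-derived cluster (horizontal axis), split by cell cycle phase, for sets of at least 20 nuclei; bars are 95% exact Poisson intervals. Cluster 3 lies above the other clusters in all 3 phases, at 54.2 CPM in G1, 55.95 CPM in S and 39.9 CPM in G2M.

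The differences between clusters were present within each phase. In G1 nuclei alone the ratio of cluster 3 to other nuclei was 3.20, in S 2.92 and in G2M 3.53. The ratio of cluster 1 was 0.263, 0.226 and 0.222. Within clusters, G2M was below G1 in all 5 clusters where both had at least 20 UMIs, at ratios of 0.578 to 0.978. In cluster 0 *Cdkn1a* was at 26.2 CPM in G1 and 16.3 CPM in G2M. In cluster 5, whose median of 30276 UMIs was the highest, it was at 28.0 and 16.2 CPM.

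*Bbc3* was the 1 gene of 9 past the fold in either phase comparison. It stood at 4.18 CPM in G1 (3.54 to 4.90), at 2.12 CPM in S and at 1.97 CPM in G2M, on 151, 68 and 144 UMIs. The ratios to G1 were 0.507 in S (0.375 to 0.679) and 0.472 in G2M (0.373 to 0.597). Across all genes, 7.01% were past the fold between S and G1 and 8.56% between G2M and G1. Cluster 2, the cluster with the most *Bbc3*, was 66.6% G1, and without it the ratio in G2M was 0.512. *Trp53* differed little, with 26.3 CPM in G1, 24.1 in S and 24.3 in G2M. *Mdm2* and *Bax* had ratios to G1 of 0.971 to 1.07 in both phases, and the ratios of *Ccng1*, *Phlda3*, *Zmat3* and *Sesn2* lay between 0.883 and 1.09.

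The pups were of either sex, so that *Xist* and 4 Y-linked genes, where they are found, separate nuclei of different pups. Only *Xist* was found in 1934 nuclei, only Y-linked UMIs in 2309, both in 264 and neither in 4410. The nuclei with neither had a median of 14736 UMIs, against 12063 with *Xist* only and 12614 with Y-linked UMIs only. They made up 85.3% to 91.7% of clusters 2, 4, 6 and 7. Their sex and pup are not known, and their *Cdkn1a* level was 16.9 CPM. *Cdkn1a* was at 7.37 CPM (6.39 to 8.46) in nuclei with *Xist* only and at 29.8 CPM (28.1 to 31.6) in nuclei with Y-linked UMIs only. The ratio was 0.247 (0.212 to 0.288), and *Cdkn1a* was the 1 gene of 9 past the fold, against 30.9% of all genes tested. This split largely repeats the clusters. Outside clusters 1 and 3 the ratio was 0.678. In cluster 5, which held both kinds in similar numbers, it was 0.619 (0.469 to 0.810), with 14.5 CPM in 219 nuclei against 23.4 CPM in 234. Cluster 5 had the highest median of UMIs, 30276, and 16.9% of its nuclei had both *Xist* and Y-linked UMIs. In the other clusters that share was at most 5.08%. Whether barcodes of cluster 5 hold several nuclei was not tested. Sex, donor and clone cannot be told apart here.

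**Figure D3:**
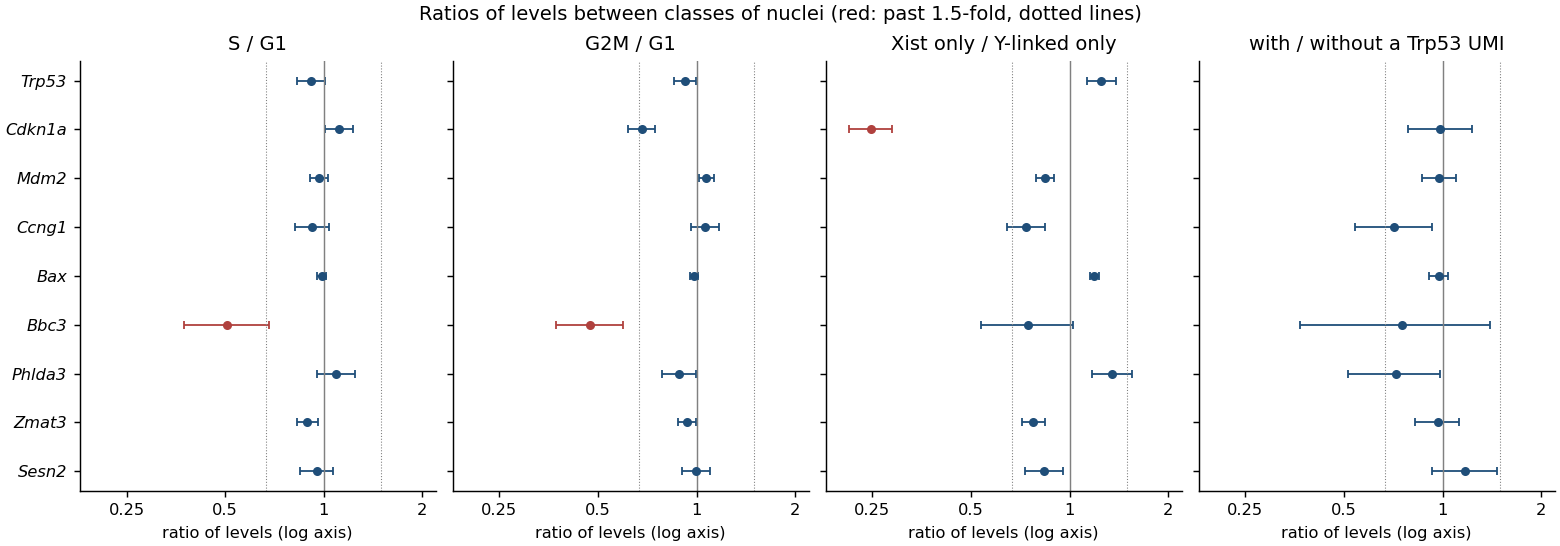
Ratios of levels (horizontal log axes) for the genes with enough UMIs between cell cycle phases, between nuclei with *Xist* only and with Y-linked UMIs only, and between nuclei with and without a *Trp53* UMI. Bars are 95% exact intervals, dotted lines mark 1.5-fold and red points are past it. *Bbc3* in both phase comparisons and *Cdkn1a* at 0.247 in the *Xist* comparison are past the lines.

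The other 8 genes differed less in this comparison. *Trp53* was at 27.6 CPM with *Xist* and at 22.04 CPM with Y-linked UMIs, a ratio of 1.251 (1.13 to 1.38). *Phlda3* (1.35) and *Bax* (1.19) also had ratios above 1. *Mdm2* (0.840), *Sesn2* (0.837), *Zmat3* (0.776), *Ccng1* (0.737) and *Bbc3* (0.744) had ratios below 1. *Cdkn1a* also differed with the share of mitochondrial UMIs. It was at 26.4 CPM in the 1954 nuclei with at most 5% and at 16.2 CPM in the others, a ratio of 1.63, and it was the 1 gene of 9 past the fold, against 5.87% of all genes. Within clusters this ratio could be read from at least 20 UMIs on each side in 5 of them. It was 0.985 in cluster 0 and 1.05 in cluster 3, and it was 1.30 in cluster 5, 1.63 in cluster 4 and 1.91 in cluster 1.

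Nuclei with and without a *Trp53* UMI were then compared at one depth, to ask whether target levels went with detection of the locus. Of 8 targets none was past 1.5-fold, against 2.30% of 12328 genes. *Cdkn1a* had a ratio of 0.986 (0.782 to 1.23), *Mdm2* of 0.977 (0.864 to 1.10), *Bax* of 0.975 (0.912 to 1.04), *Zmat3* of 0.966 (0.825 to 1.13) and *Sesn2* of 1.17 (0.931 to 1.46). *Ccng1* (0.713, interval 0.539 to 0.927), *Phlda3* (0.719, 0.516 to 0.980) and *Bbc3* (0.753, 0.366 to 1.40) had ratios below 0.8. Across all genes, 9.57% had a ratio below 0.8 or above its inverse. For *Mdm2*, *Bax* and *Zmat3* the whole interval lay between 0.8 and its inverse. Nuclei without a *Trp53* UMI at this depth cannot be taken to lack its transcripts, since the unthinned share was higher.

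Pairs of genes that answer to one regulator can be read from nuclei that hold UMIs of both. The number of nuclei with both genes at 5000 UMIs was divided by the number expected from the product of their shares. Of 45 pairs, the 36 without *Eda2r* had an expected number of at least 5. Their ratios ran from 0.748 to 1.56, with a median of 1.02. The 75319832 pairs that reached the same expected number among the 12509 genes found in at least 1% of nuclei had a median of 1.00, and the middle 90% of them lay between 0.778 and 1.24.

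**Figure D4:**
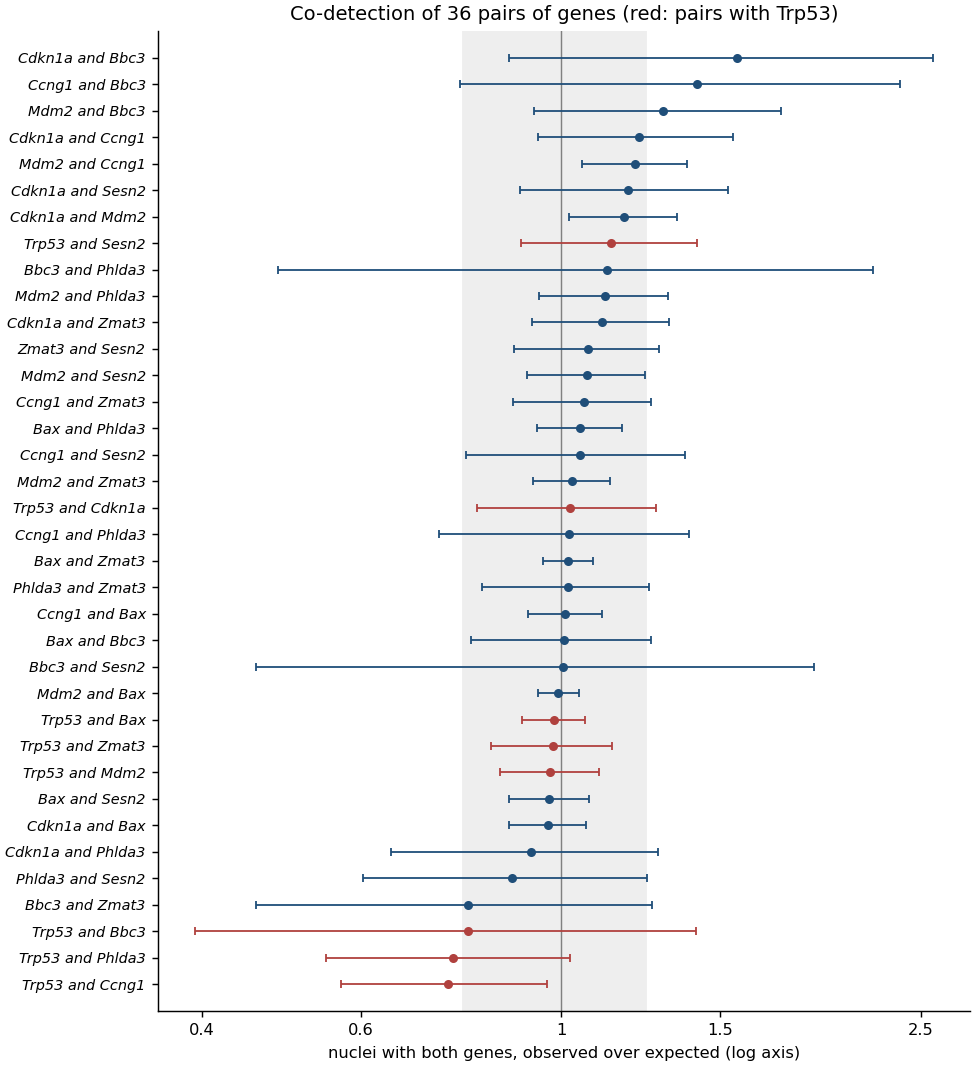
Nuclei with UMIs of both genes, observed over expected (horizontal log axis), for 36 pairs at 5000 UMIs per nucleus; bars are 95% exact Poisson intervals of the observed number, not adjusted over pairs. The grey band spans the middle 90% of the pairs of genes with an expected number of at least 5. Pairs with *Trp53* (red) run from 0.748 to 1.14.

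*Cdkn1a* and *Mdm2*, the arrest effector and the feedback inhibitor, were found together in 208 nuclei where 177 were expected, a ratio of 1.17 (1.02 to 1.34). *Mdm2* and *Ccng1* were found together in 221 nuclei where 183 were expected, a ratio of 1.21 (1.05 to 1.38). These were the 2 pairs whose interval lay above 1. When the expected number was summed within clusters and phases, the ratios were 1.11 and 1.19. The pair of *Cdkn1a* and *Bbc3* had the highest ratio, 1.56, on 15 nuclei (0.875 to 2.58). *Cdkn1a* and *Ccng1* (1.22), *Cdkn1a* and *Sesn2* (1.18), *Ccng1* and *Bbc3* (1.41) and *Mdm2* and *Bbc3* (1.29) had intervals that held 1.

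A ratio of 1.2 or more was found in 5 of 36 pairs, against 6.67% of those pairs of genes, a limit chosen after the values were seen. The 3 highest were pairs with *Bbc3*, the gene with the fewest UMIs among the 9. The 28 pairs of targets had a median of 1.05 and the 8 pairs with *Trp53* a median of 0.975. *Trp53* and *Cdkn1a* were found together in 78 nuclei where 76.4 were expected, and *Trp53* and *Mdm2* in 251 where 258 were expected. *Trp53* and *Ccng1*, with 59 nuclei where 78.9 were expected, had the 1 interval below 1 (0.569 to 0.965). With 36 intervals at 95%, some are expected to miss 1 by counting error.

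The spread over nuclei set *Cdkn1a* apart from the other genes once more. At 5000 UMIs the variance of a gene's UMIs over nuclei divided by its mean is 1 where only counting varies. It was 1.33 for *Cdkn1a* and 1.16 for *Sesn2*. For *Trp53* it was 1.02, and for the other 6 genes in the comparison it ran from 1.01 to 1.06. Among 12509 genes the median was 1.04, and 6.68% had a higher value than *Cdkn1a*. In a Poisson distribution of the same mean 1.01 nuclei would hold 3 *Cdkn1a* UMIs, and 12 did. A further 2 nuclei held 4 and 3 nuclei held 6, so part of the variance rests on few nuclei. In all, 17 nuclei had at least 3 at this depth, 9 of them in cluster 3 and 10 in G1. Within clusters the value for *Cdkn1a* was 1.28, so most of its spread lay between nuclei of the same cluster. For *Trp53* 66 nuclei held 2 UMIs, where a Poisson distribution gives 56.7.

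Other genes of the pathway were read from lists that cover regulators of p53 and further targets. All 62 were in the matrix and 54 had at least 100 UMIs. The regulators of p53 were present throughout. *Cdkn2a*, whose ARF product inhibits MDM2, was at 130 CPM (128 to 132) and was lowest in cluster 7 (100 CPM) and highest in cluster 3 (154 CPM). This gene-level count does not show how much of it belongs to ARF. *Mdm4*, a partner of MDM2, was at 82.6 CPM and *Hipk2*, a kinase of p53, at 241 CPM. The p53 family members were near absent, with 5 UMIs of *Trp63* and 17 of *Trp73*. Death receptors and related targets were rare: *Fas* had 45 UMIs, *Tnfrsf10b* 27 and *Perp* 1. *Pmaip1*, which encodes the BH3-only protein NOXA, had 153. Other targets were abundant, such as *Rps27l* (654 CPM), *Plk2* (92.1 CPM) and *Ei24* (54.4 CPM).

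**Figure D5:**
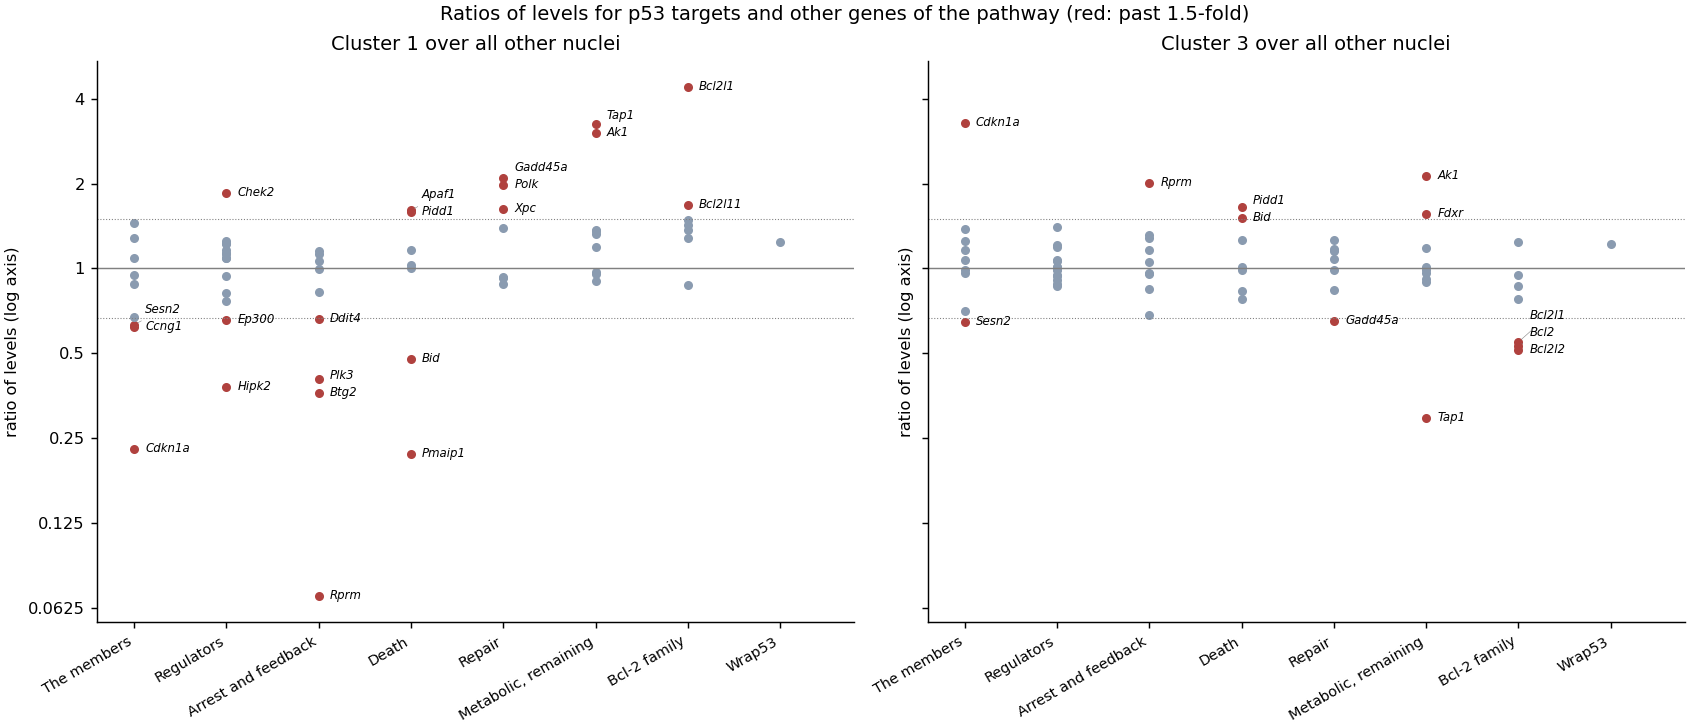
Ratio of the level in cluster 1 (left) and cluster 3 (right) to all other nuclei (vertical log axes) for the 9 genes with enough UMIs and for 54 other genes of the p53 pathway, by list; red points are past 1.5-fold (dotted lines). *Cdkn1a* is at 0.229 and 3.27, and *Rprm* at 0.0685 and 2.01.

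In cluster 1, 18 of the 54 genes were past the fold, 10 above and 8 below, against 40.8% of all genes. The lists did not share a direction. Among 9 other arrest and feedback targets 4 were below and none above: *Rprm*, which encodes the G2 arrest protein reprimo, stood at 3.48 CPM (ratio 0.0685), and *Btg2* (0.362), *Plk3* (0.405) and *Ddit4* (0.661) were lower too. Among 7 repair targets 3 were above and none below, *Gadd45a* (2.09), *Polk* (1.97) and *Xpc* (1.63). The death targets split, with *Pmaip1* at 0.219 and *Bid* at 0.476 but *Apaf1* at 1.61 and *Pidd1* at 1.58. Of the BCL-2 family, the survival gene *Bcl2l1* was at 4.42 times the level of other nuclei and the BH3-only gene *Bcl2l11* at 1.68 times.

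In cluster 3, 10 of the 54 genes were past the fold, 5 above and 5 below, against 21.7% of all genes. *Rprm* was above, at 2.01, as were *Ak1* (2.13), *Pidd1* (1.65), *Fdxr* (1.56) and *Bid* (1.51). Of the 7 genes of the BCL-2 family list 3 were below and none above. They were *Bcl2* (0.531), *Bcl2l1* (0.548) and *Bcl2l2* (0.513), which restrain BAX, whereas *Mcl1*, which also does, was at 0.945. Below were also *Gadd45a* (0.649) and *Tap1* (0.294). Between phases, 9 of the 54 genes were past the fold in S over G1, 6 above and 3 below, against 7.01% of all genes. In G2M over G1 there were again 9, 6 above and 3 below, against 8.56%. *Gtse1* (4.49 in G2M and 1.67 in S) and *Psrc1* (5.77 in G2M) are counted among those above. Both are in the G2M list that defines the phases, so their values follow from that definition and are no result. *Trp53inp1*, a target that promotes cell death, was lower than in G1 in both S (0.568) and G2M (0.501). The death target *Pidd1* was higher in both, at 4.05 and 1.93.

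Finally, the genes whose levels over the 8 clusters were most like those of *Trp53*, *Cdkn1a* and *Mdm2* were listed by Pearson's r of log2 CPM among 11408 genes. With 8 points that share a library such values are high for many genes. For *Cdkn1a* they were *Slc16a7*, *Abca5* and *Epha5* (r = 0.975, 0.975 and 0.973), and 61 genes had an r over 0.9. For *Mdm2* they were *Cdk4*, *Usp34* and *R3hdm2* (0.959, 0.959 and 0.954), with 27 genes over 0.9. For *Trp53*, whose levels hardly differed, they were *Rp9*, *Clta* and *G6pc3* (0.936, 0.934 and 0.930), with 7 genes over 0.9. *Cdk4* ran from 283 to 712 CPM between clusters. None of the 3 lists held another of the 10 genes.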

How the data were processed

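A culture of BB-p53n OPCs gave 1 library of nuclei, made with a 3′ droplet kit. The deposited counts are UMIs per gene that the authors made with Cell Ranger 8.0.1 against mm39, per the labels and the methods, with no further normalization. Cell Ranger of this version counts intronic reads by default. Barcodes with 2000 to 8000 genes were kept, the cutoffs that the methods state, which leave 8917 of 10047. The study's set after filtering is smaller: its number of nuclei and mean UMIs and genes equal those of the 1954 with at most 5% mitochondrial UMIs, a cutoff the methods do not state. This set was one of the alternatives and was also clustered on its own. The 10 genes, lists and rules were chosen with earlier results of these data known.

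Levels are summed UMIs per 1000000 UMIs (CPM) with 95% exact Poisson intervals. Shares were taken after thinning to 5000 UMIs (157 nuclei were shallower) with exact binomial intervals, and ratios have exact conditional intervals. A gene was read in a ratio from 100 UMIs. All cover counting error only. Because there is 1 library, no test was run. Clusters were re-derived with Seurat 5.3.0 in R 4.3.3 (scale factor 1000, 3000 variable genes, 20 components, 200 neighbors, resolution 1), since no annotation of nuclei was used, and they are not the study's own. Phases used Seurat's lists of 43 S and 54 G2M genes. Scrublet in scanpy 1.11.5 called 0 doublets, which counts as not having worked, so the 8% of nuclei with the highest scores were left out as an alternative. Genes were placed with GRCm39 and GENCODE, where 33185 of 33696 identifiers matched. The named genes are the 10 genes, the lists and, for *Trp53*, *Cdkn1a* and *Mdm2*, the 3 genes with the highest Pearson correlation over clusters among genes with at least 500 UMIs and 1 in every cluster. The code was tested on simulated data. Alternatives were other cutoffs, thinning to 3000 UMIs, other folds and count minimums, other clusterings and nuclei with at most 5% mitochondrial UMIs.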

Additional observations from a re-analysis of the deposited data

Results flagged for a closer look

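The 918 barcodes with under 2000 genes, left out of all comparisons, held UMIs of the 10 genes at a summed level of 315 CPM (95% exact Poisson interval 290 to 343), above the 1.71 CPM that 3 counts would give, with *Bax* at 123 CPM, *Mdm2* at 68.9 CPM and *Trp53* at 30.2 CPM. Their median mitochondrial share was 10.96% of UMIs, against 6.16% in the kept nuclei. The 212 barcodes with more than 8000 genes held them at 428 CPM (416 to 440), against 394 CPM (390 to 397) in the kept nuclei, with *Cdkn1a* at 22.3 CPM and *Bax* at 229 CPM. Both values were flagged as signal in data that no comparison used.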

How the results depend on the processing

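No paired analysis was possible because 1 library was analysed and the early-stage and late-stage samples, whose replicate numbers are shared, were not. Of 39 recomputed main values 26 kept to the interval or count range of the value reported. With at most 5% mitochondrial UMIs the summed level of the 10 genes was 405 CPM, that of *Trp53* 23.3 CPM, the share of nuclei with any of them 86.2% and the count past the fold between phases 1 instead of 2. As a mean of single nuclei the summed level was 398 CPM, against 394 CPM. The share of 85.0% was 68.8% at 3000 UMIs and 98.0% with no thinning, as fewer or more UMIs were read. The count of 12 between clusters was 4 at 2-fold, 7 in the 5 clusters of the nuclei with at most 5% mitochondrial UMIs (added after seeing the data) and 31 with 20 neighbors, which gave 16 clusters. At 2-fold the count between phases was 1. At the smaller fold (a ratio of 0.8 or its inverse) 3 targets, not 0, were past it with a *Trp53* UMI. Outside clusters 1 and 3, chosen after seeing the data, 0 genes instead of 1 were past the fold between *Xist* and Y-linked nuclei. Of 105 values of single genes 44 moved and none reversed; *Cdkn1a* in cluster 3 was 2.56 times the other nuclei with at most 5% mitochondrial UMIs and 3.57 times without the 8% highest doublet scores. With 20 neighbors *Cdkn1a* ran from 2.41 to 114 CPM between clusters. Counts below 100 UMIs limit what can be said of *Eda2r* and of *Bbc3* per cluster, and 1 library leaves variation between cultures unmeasured.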
